A study of Homo sapiens with 47 samples.

Results

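FOS, FOSB, FOSL1, FOSL2, JUN, JUNB, JUND, ATF3, EGR1 and IER2 were followed through the RNA and the promoter chromatin of PC3, a cell line long established from a human prostate cancer. The 10 genes were taken by name from a list of 62703 genes, and 9 of 19535 ChIP regions lay within 1000 bp of their gene starts. Lines overexpressing DDC, the decarboxylase that forms serotonin and dopamine, or SLC6A4, the serotonin transporter, were set against cells with the empty vector; RNA had 3 libraries of each. ChIP of H3K4me3 and of H3K4me3Q5ser, the same trimethylated histone tail carrying serotonin on the next glutamine, also had 3 libraries per line. CUT&Tag, which tags antibody-bound chromatin, gave H3K4me3 in 1 library each of the control line, the SLC6A4 line and the latter with an shRNA against TGM2, the transglutaminase that can attach serotonin to histones. All groups were PC3 cells grown in the same medium, and the sources used here do not say whether the lines were pools or clones, or whether replicates were separate cultures; p-values then measure only the spread between these libraries.

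FOS and JUN proteins pair through leucine zippers to form AP-1, a transcription factor that binds the TGANTCA element. FOS, FOSB, JUN, JUNB, EGR1, ATF3 and IER2 are immediate early genes, which growth factors and stress switch on within minutes through MAP kinases without new protein synthesis. FOSL1 is a more slowly induced and stable FOS relative common in invasive carcinoma cells, EGR1 is a zinc finger factor of GC-rich sites, and ATF3 is a stress-induced relative that can pair with JUN.

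The promoters of FOS, FOSB, EGR1 and FOSL2 are shown because the first 3 lost H3K4me3Q5ser in both lines while that of FOSL2 gained it with SLC6A4. Each is the 250 bases before the RefSeq start (GRCh38.p14), 5′ to 3′ on the gene's strand, with motif matches in capitals.
FOS, chr14:75278578-75278827, plus strand: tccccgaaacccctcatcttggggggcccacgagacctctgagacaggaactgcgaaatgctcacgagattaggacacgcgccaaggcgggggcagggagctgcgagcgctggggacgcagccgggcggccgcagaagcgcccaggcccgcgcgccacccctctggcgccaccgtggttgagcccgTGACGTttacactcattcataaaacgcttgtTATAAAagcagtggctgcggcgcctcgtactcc
FOSB, chr19:45467746-45467995, plus strand: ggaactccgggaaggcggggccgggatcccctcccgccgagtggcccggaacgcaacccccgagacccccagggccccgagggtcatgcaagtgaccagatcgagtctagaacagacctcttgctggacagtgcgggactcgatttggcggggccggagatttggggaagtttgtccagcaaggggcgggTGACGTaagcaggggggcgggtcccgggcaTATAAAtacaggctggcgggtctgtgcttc
EGR1, chr5:138465229-138465478, plus strand: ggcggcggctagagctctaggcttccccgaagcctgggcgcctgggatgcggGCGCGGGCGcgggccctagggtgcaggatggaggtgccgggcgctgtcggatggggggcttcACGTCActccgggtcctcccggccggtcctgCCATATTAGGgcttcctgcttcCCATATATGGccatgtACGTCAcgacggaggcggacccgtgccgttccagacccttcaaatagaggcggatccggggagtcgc
FOSL2, chr2:28392608-28392857, plus strand: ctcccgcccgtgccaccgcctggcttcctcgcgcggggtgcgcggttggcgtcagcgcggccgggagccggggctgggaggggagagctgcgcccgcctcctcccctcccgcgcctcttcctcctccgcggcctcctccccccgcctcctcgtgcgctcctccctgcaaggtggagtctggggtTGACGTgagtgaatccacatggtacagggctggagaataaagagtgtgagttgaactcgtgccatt
Motifs were searched on both strands from 250 bases before to 50 after the start. TGACGT, the core of the cyclic AMP response element (read as ACGTCA on the other strand), occurred at FOS, FOSB, FOSL2, EGR1 and JUND, and in 7.98% of all 35116 RefSeq promoter windows. TATAAA lay at FOS, FOSB, JUNB and 1 of the ATF3 windows, and in 11.5% of all windows. EGR1 held a pair of CArG boxes, the element bound by SRF, which occurred in 1.29% of all windows. EGR1 also held GCGNGGGCG, the element of the EGR factors, present in 9.43% of all windows. TGANTCA occurred at FOSL2 only, just after its start, and in 7.71% of all windows. Promoter sequences were at hand for 9 of the 10 genes, all but FOSL1.

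FOSL1 supplied nearly all of the RNA of the group. With the empty vector it stood at 47.7 ± 3.31 RPKM (reads scaled to exon length and library size; SD, n = 3), the 96.7th percentile of coding genes and 92.7% of the summed RPKM of the 10 genes. IER2 followed with 1.60 RPKM, then FOSL2 with 0.67, ATF3 with 0.52, FOS with 0.29, JUND with 0.27, JUN with 0.20 and JUNB with 0.17. FOS and JUND did not differ beyond their spread, nor did JUN and JUNB. FOSB stood at 0.032 and EGR1 at 0.024 RPKM. JUNB and EGR1 varied most between libraries relative to their level: the 3 empty-vector libraries held 7, 8 and 2 reads of JUNB, and 1, 3 and 0 of EGR1. Of IER2's exonic bases 52.2% overlap exons of other genes, and of JUNB's 14.2% overlap HOOK2, so their reads may include those of neighbours.

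**Figure D1:**
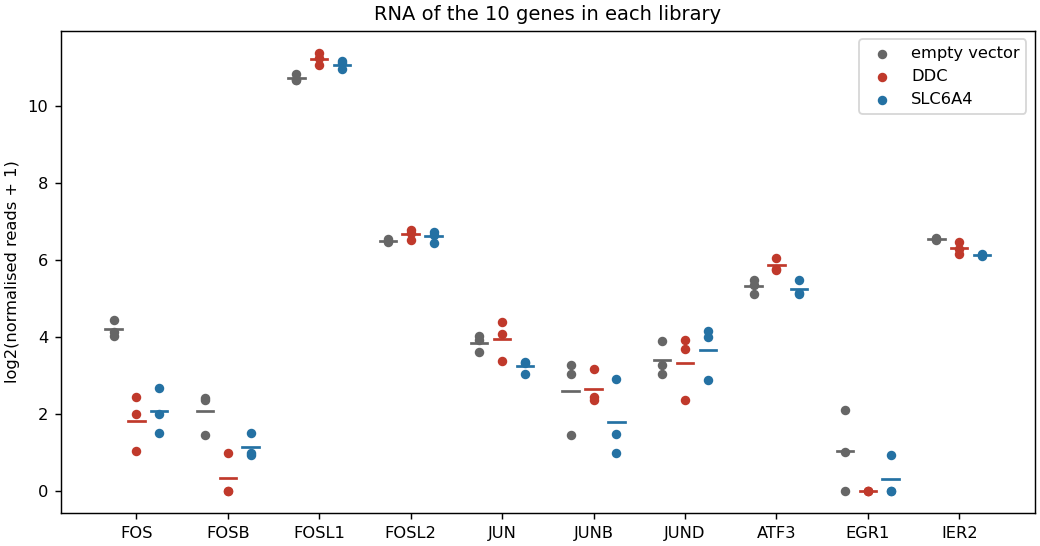
RNA of the 10 genes in each library, as log2 of normalised reads plus 1 on a scale shared by the 9 libraries; points are libraries and bars are group means. FOS lies lower in all 6 DDC and SLC6A4 libraries than in the 3 empty-vector libraries, and FOSL1 lies higher.

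FOS RNA fell in both lines. On a scale shared by all libraries it was 15.4, 20.7 and 16.4 normalised reads with the empty vector. The 3 DDC libraries gave 1.04, 4.40 and 2.98, and the 3 SLC6A4 libraries 1.86, 5.45 and 2.99, so neither line overlapped the controls. The log2 fold change was −2.37 ± 0.45 (standard error) with DDC and −2.14 ± 0.40 with SLC6A4, with limma adjusted p of 0.00053 and 0.0009. FOS passed the filter on low values only through the empty-vector libraries, so it had to differ to be tested; with no filter its limma adjusted p was 0.00029 and 0.0006. The change rests on 53 reads with the empty vector against 8 with DDC and 11 with SLC6A4. FOSB, a FOS relative, had 10, 1 and 4 reads in these groups and did not pass the filter.

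FOSL1 rose in both lines. It gave 1628, 1816 and 1641 normalised reads with the empty vector, 2435, 2657 and 2158 with DDC and 2290, 2235 and 1983 with SLC6A4. Every library of either line lay above every control. Its log2 fold change was 0.51 ± 0.08 with DDC (limma adjusted p = 0.00013) and 0.36 ± 0.07 with SLC6A4 (limma adjusted p = 0.00086). The difference between the lines, 0.15, did not pass (limma adjusted p = 0.25). FOS and FOSL1, members of 1 protein family, thus changed in opposite directions in these cells.

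ATF3 and IER2 were called in 1 line each, both close to the threshold. ATF3 rose by 0.55 ± 0.19 on the log2 scale with DDC (limma adjusted p = 0.0499), from 34.0, 43.6 and 39.7 normalised reads to 65.4, 53.9 and 52.7. This call was lost under all 12 alternatives run, with adjusted p from 0.0502 to 0.177, and without any 1 of the 6 libraries from 0.0588 to 0.173. With SLC6A4 ATF3 gave 34.4, 43.6 and 33.9 normalised reads, a range that spans that of the controls. Tested directly, ATF3 was 0.61 ± 0.19 higher on the log2 scale in DDC than in SLC6A4 cells (limma adjusted p = 0.033), a call lost under 7 of 12 alternatives. Among these, limma adjusted p was 0.123 without DDC replicate 1, 0.0558 without DDC replicate 2, 0.105 without SLC6A4 replicate 1 and 0.12 without SLC6A4 replicate 3. IER2 fell by 0.42 on the log2 scale with SLC6A4 (limma adjusted p = 0.033), from 90.5, 92.6 and 95.04 to 67.9, 69.9 and 69.7 normalised reads. The IER2 call was lost under 9 of 12 alternatives, the loss of any 1 of the 6 libraries among them (limma adjusted p from 0.0652 to 0.0816), although its 2 groups did not overlap. With DDC the log2 fold change of IER2 was −0.24 ± 0.15 (limma adjusted p = 0.29).

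FOSL2, JUN and JUND were called in neither line. JUN gave 15.4, 14.2 and 11.2 normalised reads with the empty vector, 9.35, 19.8 and 15.9 with DDC and 9.30, 7.26 and 8.97 with SLC6A4. All SLC6A4 libraries lay below the controls, with a log2 fold change of −0.62 ± 0.32 (limma adjusted p = 0.21). JUN entered that test only through the empty-vector libraries, and with no filter its limma adjusted p was 0.39. FOSL2, a FOS relative at a steady level, ranged from 86.5 to 108.9 normalised reads over the 9 libraries. In all, 3 of the 7 genes tested were called with DDC, where 17.4% of 13146 genes were: 2 rose (8.94% of all genes) and 1 fell (8.41%). With SLC6A4 3 of 7 were called beside 19.4% of 13264 genes: 1 rose (10.2% of all genes) and 2 fell (9.28%). DDC and SLC6A4 cells differed in 1 of 7, against 13.2% of 13544 genes. The first 2 comparisons share the empty-vector libraries. Both count FOS among the falls, and FOS had to differ to be tested. They also count ATF3 with DDC and IER2 with SLC6A4, the calls close to the threshold. The counts are therefore description only.

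**Figure D2:**
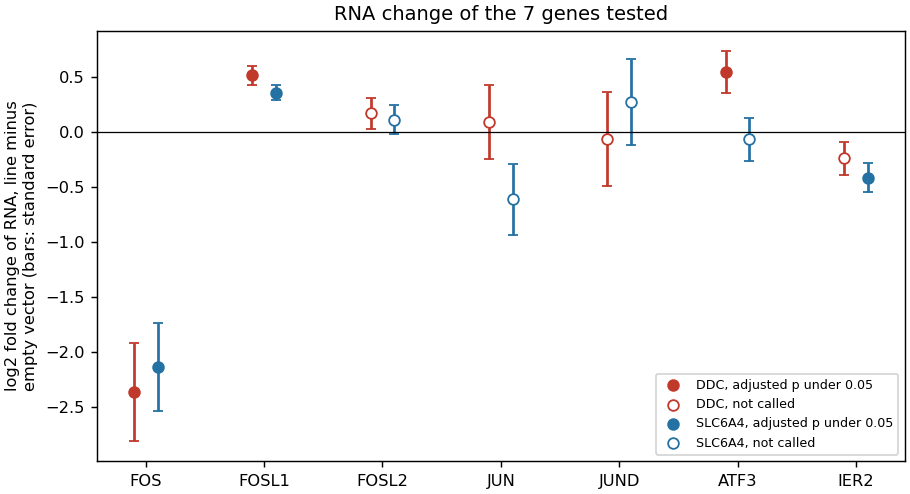
Log2 fold change of RNA against the empty vector for the 7 genes tested, with standard errors; filled points are called and open points are not. FOS lies near −2.37 and −2.14, and FOSL1 at 0.51 and 0.36.

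Other genes of the pathway were read from lists. Of 10 measured feedback inhibitors of MAP kinases, 4 fell with SLC6A4 and 1 with DDC, beside 9.28% and 8.41% of all genes, with median log2 fold changes of −0.45 and −0.00 beside 0.01 over all genes in both comparisons. DUSP6, a phosphatase of ERK, fell by 1.17 on the log2 scale with SLC6A4 (limma adjusted p = 2.6e-07), and DUSP4, a related phosphatase, by 0.74. In DDC cells the value for DUSP6 was −0.17 (limma adjusted p = 0.33). Of 11 measured genes known as AP-1 targets, 1 rose and 4 fell with DDC, beside 8.94% and 8.41% of all genes, and 2 rose and 5 fell with SLC6A4, beside 10.2% and 9.28%. TIMP1, a metalloproteinase inhibitor, fell by 0.65 with DDC and 1.52 with SLC6A4 on the log2 scale. PLAU, the urokinase, fell by 0.90 with SLC6A4 and was not called with DDC (−0.14). Of the other immediate early genes measured, 3 of 15 rose and 1 fell with DDC, and 4 of 16 rose and 3 fell with SLC6A4, beside the same shares of all genes. CCN1, a matrix protein gene, rose by 0.69 and 1.62 and IER3 fell by 0.42 and 0.56. Of 19 kinases and factors upstream, 1 rose and 1 fell with SLC6A4, beside 10.2% and 9.28% of all genes, and none was called with DDC. These were SRF, which rose by 0.56, and the kinase gene MAP2K2, which fell by 0.73.

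Genes whose RNA followed that of a member over the 9 libraries were found by Pearson's r on the log2 scale, as a description. SERPINB1 was closest to FOS (r = 0.98), SMTN to FOSL1 (r = 0.98), ACADVL to ATF3 (r = 0.97) and GSTK1 to IER2 (r = 0.98). The libraries fall into 3 groups, so any gene that separates the groups scores high.

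At promoters, H3K4me3Q5ser fell at FOS, FOSB and EGR1 in both lines and rose at the other 6 regions with SLC6A4. At EGR1 (region of 1890 bp) it was 15.01, 16.7 and 15.3 CPM (counts scaled to the library's total in regions, with TMM) with the empty vector, 9.75, 10.8 and 8.77 with DDC and 11.1, 10.9 and 11.9 with SLC6A4. The log2 fold changes were −0.67 ± 0.08 and −0.47 ± 0.07 (edgeR adjusted p = 4.2e-13 and 1.1e-09), with no overlap between groups. At FOS (3155 bp) it went from 18.8, 21.2 and 19.7 CPM to 14.5, 13.8 and 13.01 with DDC and 16.1, 16.7 and 17.7 with SLC6A4. These are log2 fold changes of −0.53 ± 0.07 and −0.24 ± 0.06 (edgeR adjusted p = 1.7e-11 and 0.00013). At FOSB (4358 bp) the order of the lines was reversed, with −0.44 ± 0.05 for DDC and −0.79 ± 0.05 for SLC6A4, and the lines differed directly by 0.35 (edgeR adjusted p = 4.3e-08).

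With SLC6A4 the mark rose at JUN (0.46 on the log2 scale), JUNB (0.46), IER2 (0.43), FOSL1 (0.37), FOSL2 (0.37) and JUND (0.34). JUN, for example, went from 120, 116 and 118 CPM to 165, 163 and 159. With DDC the changes there were smaller and mixed: JUNB rose by 0.15, IER2 by 0.10 and JUN by 0.07, while FOSL1 fell by 0.27, FOSL2 by 0.12 and JUND by 0.10. At FOSL1 the 3 DDC libraries gave 147, 154 and 147 CPM against 178, 183 and 179 with the empty vector, in the line where FOSL1 RNA rose. All 9 regions were called in each line, beside 61.2% of 19535 regions with DDC and 82.5% with SLC6A4, so being called sets none of them apart. By direction, 3 rose and 6 fell with DDC beside 29.7% and 31.5% of all regions, and 6 rose and 3 fell with SLC6A4 beside 41% and 41.5%. Between the lines all 9 differed, beside 76.9% of regions, and all but FOSB were lower with DDC. Of all 19535 regions 7602 were called lower with DDC and 7423 higher. The JUND call with DDC was lost without empty-vector replicate 3 (edgeR adjusted p = 0.0735), DDC replicate 1 (0.107) or DDC replicate 3 (0.096). The EGR1 difference between the lines was lost without DDC replicate 1 (0.0555) or 3 (0.146) or SLC6A4 replicate 3 (0.112).

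Input chromatin, not tested, also differed in mean at some of these regions. Between DDC and the empty vector the mean input differed by −0.34 on the log2 scale at EGR1, −0.21 at FOS, −0.17 at FOSL2, −0.16 at FOSB and JUND, −0.15 at FOSL1, −0.11 at JUN, 0.03 at IER2 and 0.23 at JUNB. The input groups did not overlap at FOSL1 and JUNB and overlapped at the other 7; the part of input in the ChIP changes was not tested. In size the input difference exceeded the H3K4me3Q5ser change at JUNB, FOSL2 and JUND, with the same sign, and at JUN, with the opposite sign. Input of SLC6A4 cells was not analysed here.

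**Figure D3:**
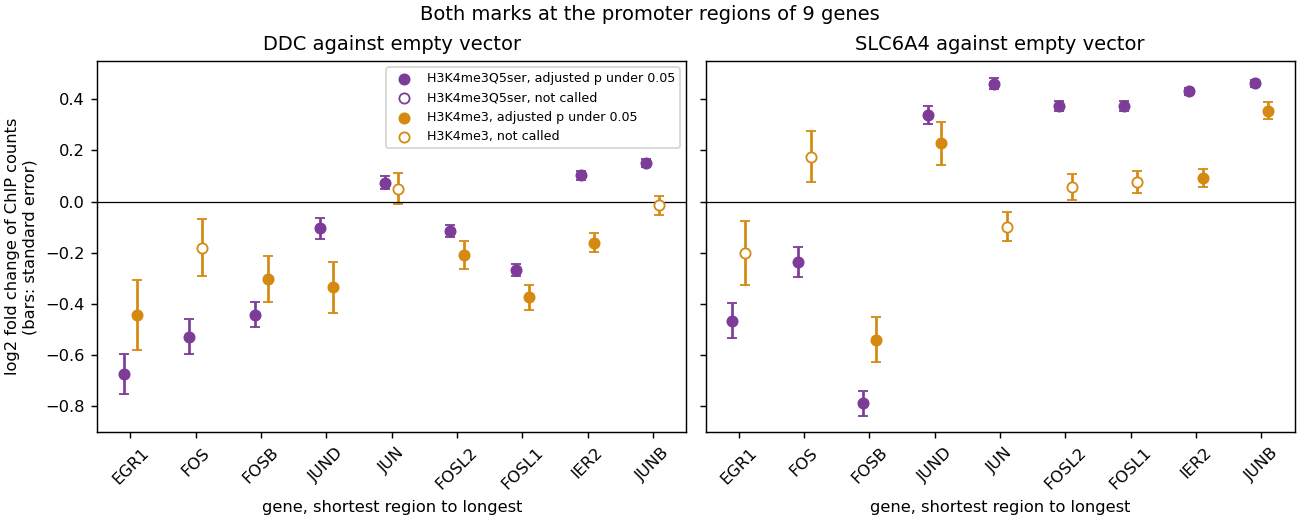
Log2 fold change of both marks against the empty vector at the promoter regions of 9 genes, ordered by region length; bars are standard errors, filled points are called. EGR1, FOS and FOSB lie below 0 for H3K4me3Q5ser in both lines.

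Region length went with the change. The 3 regions that lost H3K4me3Q5ser with SLC6A4 were 1890 to 4358 bp long, and the 6 that gained it 5969 to 35125 bp. Over all regions the median log2 fold change with SLC6A4 was −0.20 for lengths above 1000 and up to 2000 bp, 0.05 up to 5000 bp, 0.07 up to 10000 bp, 0.14 up to 20000 bp and 0.33 above that. FOSB lay below the middle 50% of its length class in both lines, and EGR1, FOS, FOSL1 and FOSL2 did so with DDC. JUN lay above that range with SLC6A4, at 0.46 where the range of its class ended at 0.38. The longest regions also hold the starts of other genes: that of FOSL1 those of CCDC85B and FIBP, that of JUNB those of PRDX2, RNASEH2A and THSD8, and that of IER2 that of STX10. A change there cannot be assigned to 1 promoter.

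**Figure D4:**
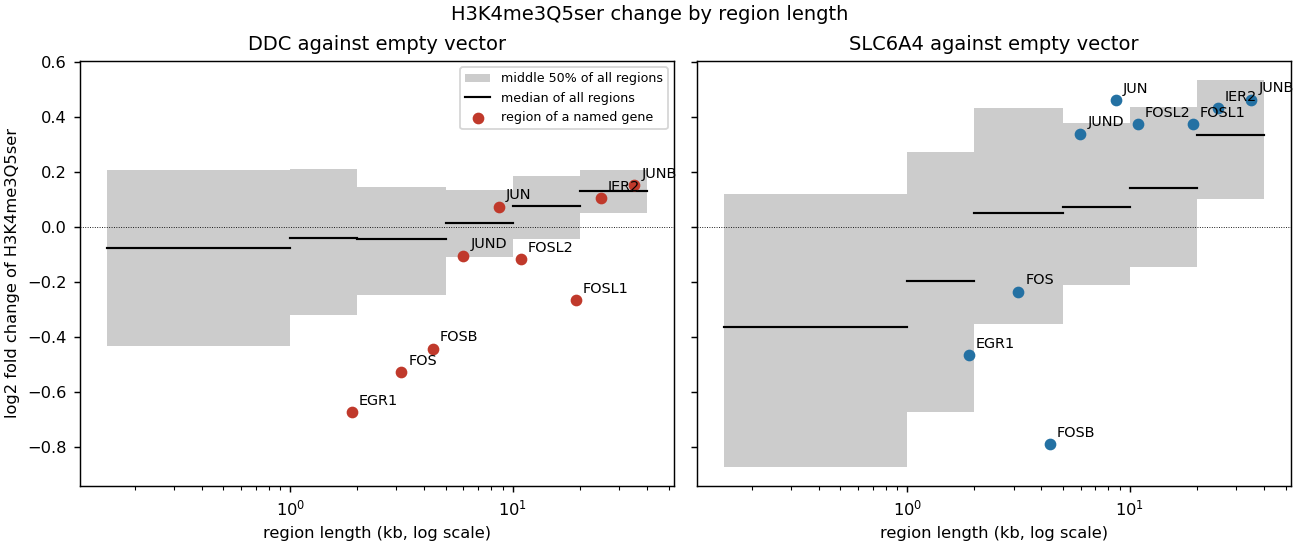
H3K4me3Q5ser log2 fold change against region length (log scale) for the 9 regions, with the median and middle 50% of all regions in each length class; the last class is drawn to 40 kb. With SLC6A4 the 6 regions above 5000 bp lie above 0 and FOSB is lowest.

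H3K4me3 fell with DDC at 6 of the 9 regions, beside 9.39% of 18972 regions that fell and 17.6% called in either direction: EGR1 by 0.44, FOSL1 by 0.37, JUND by 0.34, FOSB by 0.30, FOSL2 by 0.21 and IER2 by 0.16 on the log2 scale. At FOSL1 it went from 163, 169 and 163 CPM to 129, 129 and 126 (edgeR adjusted p = 6.1e-12). With SLC6A4 it rose at JUNB by 0.35, JUND by 0.23 and IER2 by 0.09 and fell at FOSB by 0.54, where 61.5% of regions were called, 31.9% up and 29.6% down. Between the lines 8 of 9 were called beside 60.2% of regions: JUN (0.15) and FOSB (0.24) were higher with DDC and the other 6 lower. Of all 18972 regions 5559 were called higher with DDC and 5857 lower. For this mark FOS was called in neither line, with −0.18 ± 0.11 and 0.18 ± 0.10 (edgeR adjusted p = 0.27 and 0.11). Some calls depended on single libraries, and edgeR adjusted p follows in parentheses. With DDC the EGR1 call was lost without empty-vector replicate 1 (0.0628) or DDC replicate 2 (0.126), that of FOSB without empty-vector replicate 2 (0.0708) or DDC replicate 1 (0.0765), and that of JUND without empty-vector replicate 1 (0.177) or DDC replicate 3 (0.05002). With SLC6A4 the IER2 call was lost without empty-vector replicate 1 (0.157) or SLC6A4 replicate 2 (0.191). The JUND call was lost without empty-vector replicate 2 (0.155) or 3 (0.117) or SLC6A4 replicate 3 (0.0706). Between the lines the JUN call was lost without DDC replicate 1 (0.0601) or SLC6A4 replicate 3 (0.156), and that of FOSB without DDC replicate 3 (0.213) or SLC6A4 replicate 1 (0.0602).

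The change of H3K4me3Q5ser minus that of H3K4me3 was tested in 1 model. With SLC6A4 it was positive at JUN (0.56), IER2 (0.34), FOSL2 (0.32), FOSL1 (0.30) and JUNB (0.11), and negative at FOS (−0.41) and FOSB (−0.25), 7 of 9 called beside 29.2% of 19529 regions (14.5% up, 14.7% down). The FOS and FOSB values had edgeR adjusted p of 0.0025 and 0.0499, and single libraries decided both. The FOS call was lost without empty-vector replicate 2 (0.0647) or SLC6A4 replicate 1 (0.0526). That at FOSB was lost without empty-vector replicate 1 (0.218) or 3 (0.123) or SLC6A4 replicate 2 (0.37) or 3 (0.101), and that at JUNB without empty-vector replicate 3 (0.0747) or SLC6A4 replicate 3 (0.0733). With DDC it was called at IER2 (0.27) and JUNB (0.17), 2 of 9 beside 15% of regions called in either direction and 5.15% called up. FOS stood at −0.34 there (edgeR adjusted p = 0.056), and passed without empty-vector replicate 1 (0.0261) or DDC replicate 1 (0.0309).

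ATF3 needed a separate look. No region lay within 1000 bp of its gene start. The nearest, of 1258 bp, lay 1010 bp away. H3K4me3Q5ser at this nearest region fell by 0.43 with SLC6A4 (edgeR adjusted p = 2.3e-07) and by 0.26 with DDC (0.0033) on the log2 scale. The DDC call was lost without DDC replicate 2 (0.0813), and H3K4me3 was called there in neither line. Another region, of 7536 bp (chr1:212605387-212612922), lies inside the gene and was chosen after the data were seen. Of its 10 annotated transcript starts 4 lie in that region or within 1000 bp of it, the canonical one among them. There H3K4me3Q5ser fell from 69.7, 64.0 and 68.9 to 58.4, 58.9 and 53.8 CPM with DDC, by 0.24 on the log2 scale (edgeR adjusted p = 4.5e-09), and rose by 0.15 with SLC6A4 (edgeR adjusted p = 1e-05). H3K4me3 rose by 0.27 with SLC6A4 and was not called with DDC (0.08, edgeR adjusted p = 0.36). The DDC line thus had more ATF3 RNA by the borderline call above and less H3K4me3Q5ser there.

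CUT&Tag, with no replicates, gave H3K4me3 at 11 listed peaks of 7 of the genes. By the authors' label, the listed peaks are H3K4me3 peaks not dependent on Q5, the glutamine that carries serotonin. How they were chosen is not given in the sources used here. The part of that choice in the ratios was not tested. At FOS the SLC6A4 library stood at 0.87 and 0.86 times the control over its peaks, and the library with the TGM2 shRNA at 0.76 and 0.89 times the SLC6A4 library. At EGR1 the ratios were 0.87 and 0.72 to the control, and 1.04 and 1.44 after the shRNA. The 0.72 and 1.44 come from a low peak of 194 bp. It held 4.32 CPM in the control, 3.10 with SLC6A4 and 4.47 after the shRNA, in 1 library each. The median over the 13882 peaks of this list was 1.07 and 0.94. The SLC6A4 library stood at 1.15 times the control at IER2, 1.04 at JUNB and FOSL2, 1.198 and 1.07 at JUN, and 1.2 and 0.91 at JUND, whose peaks thus lay on both sides of the control. After the shRNA the ratio to the SLC6A4 library was 0.99 at IER2, 1.04 at JUNB and 1.004 at FOSL2. It was 1.05 and 0.88 at JUN, and 1.11 and 1.003 at JUND. The authors' separate list of raised peaks, whose basis is not given in the sources used here, had a peak within 1000 bp of FOSB, FOSL2 and JUNB, 3 of the 8 genes with any CUT&Tag peak (37.5%), beside 1946 of 9824 coding genes (19.8%). In the ChIP of SLC6A4 cells H3K4me3 at FOSB fell by 0.54 on the log2 scale. Since the groups behind the list of raised peaks are not known here, that value cannot be set against it.

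RNA libraries held 17.3 M to 21.7 M reads in genes, and ChIP libraries 13.5 M to 24.8 M pairs of reads in regions for H3K4me3Q5ser and 3.43 M to 5.81 M for H3K4me3. DDC had 79 reads in its line and 1 with the empty vector, and SLC6A4 had 344 and 1. All 5 epithelial markers were detected in every library. However, all 5 fell with DDC and 4 of 5 with SLC6A4, beside 8.41% and 9.28% of all genes. With DDC the log2 fold change was −3.54 for CDH1, the E-cadherin gene, and −1.91 for EPCAM. Their summed RPKM ran from 483 to 549 with the empty vector, 281 to 320 with DDC and 404 to 445 with SLC6A4. Of 8 markers of other cell types CD3E and DCN were at 0 reads in all 9 libraries, PTPRC and VWF had at most 1, CD68 had 117 to 173 and PECAM1 37 to 244. Their summed RPKM ran from 4.97 to 5.47, 4.11 to 4.36 and 3.17 to 3.69 in the same order. PECAM1 and COL1A1, 2 of the 4 tested, fell in each line, beside the same shares of all genes. Summed RPKM of 8 heat shock genes ran from 747 to 799 with the empty vector, 543 to 671 with DDC and 950 to 1097 with SLC6A4. Most of their reads were of HSP90AA1, which fell by 0.39 with DDC and rose by 0.43 with SLC6A4, whereas HSPA8 rose by 0.29 and 0.56 and the other 6 were called in neither line. The part of these marker and stress genes in the results was not tested.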

How the data were processed

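RNA values are signal, reads per gene divided by a DESeq2 size factor, as deposited. The submitters' processing notes name HISAT2 2.1.0 and the GRCh38 build. Dividing by the smallest step of a library turned 100% of its values into whole reads (tolerance 1e-06), on which edgeR called 2310 genes with DDC and 2585 with SLC6A4. The ChIP table holds estimated counts of read pairs per region from featureCounts 2.0.3 with fractional sharing, per the file headers, and was rounded for testing. The CUT&Tag table holds CPM as deposited, of a total not given there.

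RNA was tested with limma 3.58.1 on log2(value + 1), within each table, for genes with at least 10 in 3 libraries; fold changes on this scale understate low genes. Both lines were compared with each other on recovered reads with shared size factors. ChIP was tested with edgeR 4.0.16 (quasi-likelihood, TMM). DESeq2 1.42.0 was an alternative. P-values are two-sided, adjusted by Benjamini-Hochberg over all features, threshold 0.05. Scripts were tested on simulated data. GENCODE 44 gave starts. The 20966 genes with no name hold 4.65% to 4.98% of reads.

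The 10 genes and all lists were chosen with earlier results of these data known. All 10 were named, up to 3 called genes per list and direction, and the 3 genes closest in pattern to each, of which some are printed. Unmatched CUT&Tag samples were not analysed here. Some genes of the lists are not reported here.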

Additional observations from a re-analysis of the deposited data

Results flagged for a closer look

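The effects of DDC and SLC6A4 differed when the lines were compared directly, with opposite calls against the empty vector, for H3K4me3Q5ser at FOSL1 (−0.64 on the log2 scale, DDC minus SLC6A4), FOSL2 (−0.49) and JUND (−0.44), and for H3K4me3 at JUND (−0.56) and IER2 (−0.25). RNA of ATF3 differed by 0.61 in the same test, a call lost under 7 of 12 alternatives. The differences of the marks between the lines kept their calls under all 10 alternatives. Some calls against the empty vector did not. For H3K4me3Q5ser, JUND with DDC lost its call under 4 of 10. For H3K4me3, JUND lost it under 2 of 10 with DDC and 4 of 10 with SLC6A4, and IER2 under 3 of 10 with SLC6A4. Input also fell more than H3K4me3Q5ser at FOSL2 and JUND with DDC, as given above. With 3 libraries a group, single libraries were not screened for outlying values.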

How the results depend on the processing

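Of the values for single genes under other settings, 916 kept direction and side of the threshold, 71 lost a call, 8 gained one and 19 changed sign. The sign changes concerned values that were not called under either setting. Leaving out single libraries gave these log2 ranges for them: with DDC, RNA of JUND −0.25 to 0.42 and of JUN −0.13 to 0.38; with SLC6A4, RNA of ATF3 −0.18 to 0.012; between the lines, RNA of FOSL2 −0.026 to 0.12, of JUND −0.74 to 0.14 and of FOS −0.56 to 0.15. For H3K4me3 the ranges were −0.038 to 0.00596 at JUNB with DDC, and at the region nearest the ATF3 gene start −0.0100 to 0.12 with DDC, −0.071 to 0.044 with SLC6A4 and −0.0028 to 0.13 between the lines. The difference of the marks at JUND with SLC6A4 ran from −0.013 to 0.18. Other settings with a change of sign were DESeq2 for JUND RNA with DDC (0.0084), and library size scaling for FOSL2 RNA between the lines (−0.031) and H3K4me3 near ATF3 with SLC6A4 (0.026).

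Members called in RNA, 3 for DDC and 3 for SLC6A4, ranged from 1 to 2 without single libraries. ATF3 with DDC and IER2 with SLC6A4 lost their calls without any 1 library, and FOS could not be tested without an empty-vector library. For DDC against SLC6A4 the count ranged from 0 to 1, and it was 0 with no filter, with DESeq2 and with library size scaling. H3K4me3 with SLC6A4 had 2 members called by DESeq2, and with DDC 1659 regions by DESeq2 against 3344; the cause was not tested. Leaving out single libraries gave 1543 to 2088 genes for DDC RNA and 2592 to 2756 regions for H3K4me3 with DDC. Library size scaling gave 592 genes up and 1800 down for DDC RNA against 1175 and 1106, 570 and 1423 against 876 and 913 for DDC against SLC6A4, and 1428 and 4661 regions against 2825 and 2880 for the difference of the marks with SLC6A4; it moved the median of all genes by −0.12 for DDC RNA.

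DESeq2 ended the calls of ATF3 RNA with DDC and between the lines, of IER2 RNA with SLC6A4, of H3K4me3Q5ser at JUND with DDC and at EGR1 between the lines, and of H3K4me3 at FOSB and EGR1 with DDC, at IER2 and JUND with SLC6A4 and at JUN and FOSB between the lines. Library size scaling ended those of ATF3 RNA with DDC and between the lines, of H3K4me3Q5ser at EGR1 and H3K4me3 at JUN between the lines, and of the difference of the marks at JUNB with SLC6A4. It added calls for the difference of the marks at EGR1 with SLC6A4 and at FOS with DDC, for H3K4me3 at FOSL1 with SLC6A4, and for H3K4me3Q5ser at the region nearest the ATF3 gene start between the lines. The replicate block gave 2369, 2497 and 1720 genes in the 3 RNA comparisons, against 2281, 2579 and 1789. It ended the calls of ATF3 RNA with DDC, IER2 RNA with SLC6A4 and the difference of the marks at FOSB with SLC6A4, and no other call of a member. Same-numbered RNA libraries correlated between −0.04 and 0.01 in their deviations, so numbers were not taken as pairs. Low read numbers limit FOS, FOSB, EGR1, JUN, JUNB and JUND: FOSB and EGR1 had 10 and 4 reads in the controls in all.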
